A study of Mus musculus with 7 samples.

Results

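The 10 genes described here are ligands, receptor subunits, the transcription factor and the feedback inhibitor of IL-6 family signaling through STAT3 in mouse skin papillomas. They were chosen by symbol from the 23284 symbols listed for every papilloma. No cutoff on a measured value was used, but earlier results of these data were known when they were chosen. The members are the ligands *Il6*, *Il11*, *Lif* and *Osm*, the IL-20 subfamily cytokine *Il24*, the receptor subunits *Il6ra*, *Il6st* and *Osmr*, and *Stat3* and *Socs3*. All 10 were listed in all 7 papillomas with an accepted estimate, and 8 of them reached the mean of 0.5 FPKM (fragments per kilobase of transcript, scaled to library size) that was required for the test across genes.

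IL-6 family ligands bind receptors that share the subunit gp130, the product of *Il6st*. The bound receptor activates JAK kinases, which phosphorylate STAT3, and phosphorylated STAT3 enters the nucleus and switches on genes that include its own inhibitor *Socs3*. In skin, keratinocytes use this pathway during wound repair and in tumors promoted by phorbol esters, and IL-24 activates STAT3 through other receptors that keratinocytes carry.

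Poly(A)+ RNA was sequenced from papillomas of 4 CTR and 3 TG mice, each papilloma from a different mouse. CTR mice of C57Bl/6 background carried the tetO-Nanog transgene and no transactivator, and TG mice carried tetO-Nanog together with K5-rtTA, in which a keratin 5 promoter drives the transactivator in basal keratinocytes. Both groups received the carcinogen DMBA, the promoter TPA and doxycycline at 2 mg/ml in drinking water, so the comparison is within treated skin and holds no untreated skin. The groups differed in the transactivator itself as well as in *Nanog* induction. Papillomas were taken when the protocol ended or earlier, once a humane endpoint was reached. Many TG mice were sacrificed early for large carcinomas, and the study does not state the time for each sequenced papilloma. The study linked NANOG to STAT3 phosphorylation, which RNA does not measure, and the question asked here is how the transcripts of the pathway differed between TG and CTR papillomas.

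The libraries held between 10074859 and 15710562 reads on genes, as implied by the deposited confidence intervals, with CTR 3 and TG 1 the deeper ones. *Nanog* was 36.9 to 66.9 FPKM in TG and 2.70 to 12.7 FPKM in CTR papillomas, higher in every TG papilloma, although the transgene and the endogenous gene could not be told apart. TG 3 stood apart from the other 6 papillomas in markers of other cell types, which are given with the ligands, and values without TG 3 are given where a result rests on it. The keratinocyte markers *Krt5* and *Krt14* were abundant in all 7 papillomas. In bulk tissue, fewer cells of a type and less RNA per cell cannot be told apart.

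Across the 12299 genes tested with limma, no gene passed an adjusted p of 0.05 in either direction, which is 0% of the genes tested in each direction, and no member did. Before adjustment, 598 of them (4.86%) had a limma p under 0.05 with a higher TG mean, and 241 (1.96%) with a lower one. With limma sample quality weights 49 genes passed the adjusted threshold as higher and 36 as lower, again with no member among them. The study used another test on these papillomas and did list upregulated genes at a false discovery rate under 0.05. That list holds *Nanog* and *Lcn2* and no member. Of the 8 members tested, 6 were higher at an unadjusted limma p under 0.05 without such weights (*Il24*, *Il6ra*, *Il6st*, *Osmr*, *Stat3* and *Socs3*) and 0 were lower. The split over all genes depended on scaling, with 515 higher and 418 lower after upper-quartile scaling and 403 higher and 551 lower after quantile normalization, while the number of members higher was 6 under both. The lowest TG value lay above the highest CTR value for 606 of the genes tested (4.93%), and the reverse held for 274 (2.23%). Among all 10 members the groups were separate in that way for *Il24*, *Stat3* and *Socs3*, all higher in TG, and for none lower.

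**Figure D1:**
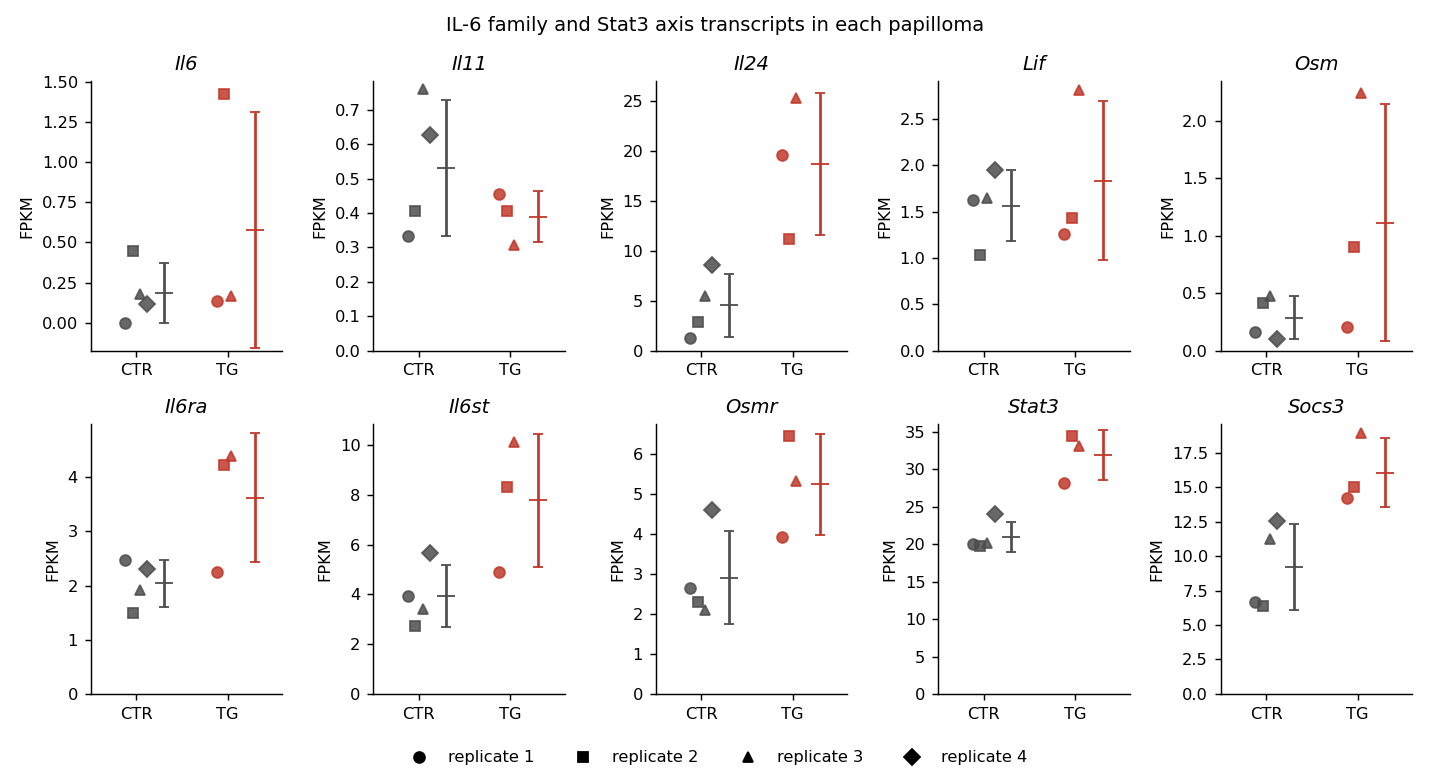
FPKM of each of the 10 members (vertical axes, linear, each with its own scale) in the CTR and TG papillomas. Each point is 1 papilloma, with the marker shape giving its replicate number, and the cross bar with whiskers is the group mean ± SD (4 CTR, 3 TG). The TG points lie above all CTR points for *Il24*, *Stat3* and *Socs3*, and the groups overlap for the other 7 members.

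*Stat3*, the transcription factor of the pathway, lies on the minus strand of chromosome 11 from 100886810 to 100939511 (GRCm38). It was 20.1, 19.7, 20.1 and 24.0 FPKM in CTR 1 to CTR 4 and 28.2, 34.4 and 33.2 FPKM in TG 1 to TG 3. Each TG value was above each CTR value, and the means were 21.0 ± 2.01 FPKM (SD, n = 4) in CTR and 31.9 ± 3.30 FPKM (SD, n = 3) in TG, a ratio of 1.52. *Stat3* had the smallest differences within groups relative to its level, and it was also the deepest member, with 1556 to 3133 implied reads a papilloma. The difference of log2(FPKM + 0.5), TG minus CTR, was 0.59 (SE 0.15, limma p = 0.00394, adjusted p = 0.564), and the exact 2-sided permutation p of this single gene was 0.0286. That is the smallest p that the 35 arrangements of 4 and 3 papillomas allow. The difference stayed between 0.53 and 0.68 in all 21 alternative settings tried, and it was 0.56 without TG 3. In the GENCODE annotation the 3′ end of *Stat3* overlaps that of *Stat5a*, which is read from the opposite strand, and whether strand was used in counting is not given in the sources used here. *Stat5a* had at most 2.26 FPKM in any papilloma.

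*Socs3*, which encodes the feedback inhibitor of gp130 signaling and is a textbook STAT3 target, lies on chromosome 11 from 117966087 to 117969366. It was 6.70, 6.36, 11.2 and 12.5 FPKM in the CTR papillomas and 14.2, 15.1 and 18.9 FPKM in TG 1 to TG 3. The groups did not overlap, but the CTR values themselves fell into a lower pair (CTR 1 and CTR 2) and a higher pair (CTR 3 and CTR 4), and the gap between CTR 4 and TG 1 was smaller than the gap within CTR. The difference was 0.82 on the log2 scale (SE 0.26, limma p = 0.0125, adjusted p = 0.653), and the exact permutation p was 0.0571. It lay between 0.56 and 1.01 in the 21 alternatives and was 0.70 without TG 3.

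The sequences before the start sites of *Socs3* and *Stat3* are shown because these are the separated members for which RefSeq (GRCm38.p6) gives a promoter window, and that of *Il6st* because it encodes the receptor subunit that the IL-6 family shares. Each line is the 250 bases before the start, 5′ to 3′ on the gene's strand, and capitals mark the STAT-type motif TTCNNNGAA. The *Socs3* window is chr11:117969367-117969616 (minus strand), the *Stat3* window chr11:100939541-100939790 (minus strand) and the *Il6st* window chr13:112463820-112464069 (plus strand).
Socs3: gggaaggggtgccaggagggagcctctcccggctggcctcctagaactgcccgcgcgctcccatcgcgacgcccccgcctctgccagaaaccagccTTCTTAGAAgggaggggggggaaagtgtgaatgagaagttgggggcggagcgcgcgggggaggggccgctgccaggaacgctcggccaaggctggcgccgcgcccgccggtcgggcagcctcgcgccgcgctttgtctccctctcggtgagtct
Stat3: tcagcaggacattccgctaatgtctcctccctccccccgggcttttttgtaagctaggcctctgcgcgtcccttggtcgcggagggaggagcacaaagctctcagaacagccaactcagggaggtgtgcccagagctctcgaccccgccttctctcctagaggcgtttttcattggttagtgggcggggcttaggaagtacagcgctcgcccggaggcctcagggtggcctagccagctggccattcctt
Il6st: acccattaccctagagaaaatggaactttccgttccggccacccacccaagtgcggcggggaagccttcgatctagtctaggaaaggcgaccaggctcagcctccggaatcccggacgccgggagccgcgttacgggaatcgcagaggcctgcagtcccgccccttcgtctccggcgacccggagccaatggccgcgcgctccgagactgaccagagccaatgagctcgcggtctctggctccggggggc

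The motif TTCNNNGAA, which reads the same on both strands, was found in 2726 of 32851 mouse promoter windows (8.30%), each from 250 bases before to 50 after a start. Windows were available for 8 of the 10 members (9 windows, with a pair for *Il11*), and only the *Socs3* window held it, as TTCTTAGAA beginning 154 bases before the start. The motif of AP-1, a factor activated by TPA, was searched as TGANTCA, which also reads the same on both strands and was found in 2565 of the windows (7.81%). It was present for 4 members, beginning 249 bases before the start of *Il6*, 98 before a start of *Il11*, 228 before that of *Lif* and at base 4 after that of *Osmr*. The 2 motifs did not occur in the same member. A match describes the letters only, and *Il24* and *Osm* had no entry.

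The receptor subunits were higher in TG papillomas on average, with overlapping groups. *Il6st*, the signal-transducing subunit gp130, lies on chromosome 13 from 112464070 to 112506860 and was 3.92, 2.73, 3.42 and 5.65 FPKM in CTR 1 to CTR 4. It was 4.89, 8.33 and 10.1 FPKM in TG 1 to TG 3, so CTR 4 lay above TG 1, and in the other 11 of the 12 pairings across groups TG was higher. The log2 difference was 0.89 (SE 0.29, limma p = 0.0139, adjusted p = 0.666), with an exact permutation p of 0.0857. It was 0.68 without TG 3 (SE 0.30), where the unadjusted limma p was 0.0554.

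*Osmr*, the oncostatin M receptor subunit that pairs with gp130, lies on chromosome 15 from 6813577 to 6874313. Its levels were 2.64, 2.29, 2.10 and 4.61 FPKM in CTR and 3.93, 6.46 and 5.33 FPKM in TG papillomas. CTR 4 was again the highest CTR papilloma and lay above TG 1. The log2 difference was 0.78 (SE 0.27, limma p = 0.0191, adjusted p = 0.687), with an exact permutation p of 0.0857. It ranged from 0.63 without TG 2 to 0.99 without CTR 4.

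*Il6ra*, the ligand-binding IL-6 receptor subunit, lies on chromosome 3 from 89869324 to 89913162 and overlaps the antisense gene *Gm42809* in GENCODE. It was 2.47, 1.49, 1.92 and 2.30 FPKM in CTR and 2.26, 4.22 and 4.398 FPKM in TG papillomas. TG 1 lay inside the CTR range, and TG 2 and TG 3 lay above it. The log2 difference was 0.67 (SE 0.26, limma p = 0.0296, adjusted p = 0.702), with an exact permutation p of 0.0857. Without TG 3 it was 0.52 (SE 0.27), with an unadjusted limma p of 0.0936. For all 3 subunits TG 1, from a deeper library, was the lowest of the TG papillomas. Within the 5 papillomas of lower depth (3 CTR, 2 TG) the log2 differences were 1.12 for *Il6st*, 0.84 for *Osmr* and 0.91 for *Il6ra*, beside 0.66 for *Stat3*, 1.01 for *Socs3* and 2.19 for *Il24*.

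*Il24*, a cytokine of the IL-20 subfamily made by keratinocytes and immune cells, had the largest difference of the 10 members. It lies on the minus strand of chromosome 1 from 130882074 to 130887411. It was 1.299, 2.86, 5.45 and 8.58 FPKM in CTR 1 to CTR 4 and 19.6, 11.2 and 25.3 FPKM in TG 1 to TG 3. Both groups were widely spread, and all TG values were above all CTR values. The means were 4.55 ± 3.19 FPKM (SD, n = 4) and 18.7 ± 7.11 FPKM (SD, n = 3), a ratio of 4.12. The log2 difference was 2.10 (SE 0.52, limma p = 0.00293, adjusted p = 0.563), with an exact permutation p of 0.0571. The smallest value in any alternative was 1.31, with limma sample quality weights, and without TG 3 it was 1.85.

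The neighbors of *Il24* on chromosome 1 are *Il20*, 19.8 kb away, then *Il19* and *Il10*, all of the same wider cytokine family. *Il20* did not exceed 0.127 FPKM and *Il10* did not exceed 0.545 FPKM in any papilloma. *Il19* was 2.51, 8.66, 9.32 and 12.5 FPKM in CTR and 9.70, 29.95 and 10.1 FPKM in TG papillomas, with TG 1 and TG 3 inside the CTR range. Its log2 difference was 0.95 (SE 0.54, limma p = 0.114, adjusted p = 0.826), with an exact permutation p of 0.314. *Il24* was between 0.330 and 0.688 times *Il19* in FPKM in the 4 CTR papillomas and 0.374 times in TG 2, but 2.02 times in TG 1 and 2.50 times in TG 3. This ratio was chosen after the values were seen and was not tested. *Faim3*, on the other side at 1.28 kb, did not exceed 1.26 FPKM. Of the receptor subunits for IL-24, *Il20rb* was 13.3 to 23.1 FPKM in CTR and 14.1 to 16.3 FPKM in TG papillomas, *Il22ra1* was 3.37 to 4.87 and 3.25 to 7.93 FPKM, and *Il20ra* was 0.0805 to 0.765 and 0.407 to 3.06 FPKM. None of the 3 passed an unadjusted p of 0.05.

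The IL-6 family ligands among the members were low and did not separate the groups. *Il6*, on chromosome 5 from 30013161 to 30019968, was listed at 0, 0.444, 0.176 and 0.116 FPKM in CTR and 0.138, 1.43 and 0.166 FPKM in TG papillomas. These values rest on at most 23 implied reads, and on 3 or fewer in CTR 1, CTR 4, TG 1 and TG 3, where 0 reads cannot be told from about 3. TG 2 alone was high, and its deposited 95% interval of 0.832 to 2.02 FPKM lay above the interval of 0.130 to 0.759 FPKM in CTR 2, the next highest papilloma, for counting error only. *Il6* was under the mean required for the test, its log2 difference was 0.49 with an exact permutation p of 0.400, and without TG 2 the difference was -0.03.

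*Il11*, a stromal and epithelial ligand of the family on chromosome 7 from 4772378 to 4778141, was 0.334, 0.405, 0.761 and 0.628 FPKM in CTR and 0.455, 0.405 and 0.308 FPKM in TG papillomas. It was the only member with a lower TG mean. Its log2 difference of -0.20 had an exact permutation p of 0.314, from 10 to 36 implied reads a papilloma.

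*Lif*, which signals through gp130 and the LIF receptor, lies on chromosome 11 from 4257568 to 4272514. It was 1.63, 1.03, 1.65 and 1.95 FPKM in CTR and 1.26, 1.43 and 2.82 FPKM in TG papillomas. TG 3 alone lay above the CTR range. The log2 difference was 0.14 (SE 0.28, limma p = 0.630, adjusted p = 0.966), with an exact permutation p of 0.686. Its sign changed to -0.14 without TG 3.

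*Osm*, oncostatin M, which myeloid cells are known to make, starts on chromosome 11 at 4236785, ends at 4241026 and is 16.5 kb from *Lif*. It was 0.158, 0.412, 0.477 and 0.1 FPKM in CTR and 0.206, 0.897 and 2.24 FPKM in TG papillomas. TG 1 lay inside the CTR range, TG 2 above it and TG 3 highest, on 67 implied reads. The log2 difference was 0.85 (SE 0.44, limma p = 0.0865, adjusted p = 0.810), with an exact permutation p of 0.114. It was 0.37 without TG 3.

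*Lif* and *Osm* were highest in TG 3, as were *Il24*, *Socs3*, *Il6st* and *Il6ra*, and markers of other cell types were also high there. *Il6*, *Osmr* and *Stat3* were highest in TG 2, and *Il11* in CTR 3. The 6 listed neutrophil markers summed to 5.597 to 10.8 FPKM in CTR papillomas, 11.8 in TG 1, 9.99 in TG 2 and 52.5 FPKM in TG 3. Of them *Csf3r* was 17.0 FPKM in TG 3 and at most 0.75 FPKM elsewhere, and *Elane* was listed at 0 in 6 papillomas, TG 3 among them. *Cxcr2*, which led the sum outside TG 3, was 4.84 to 9.16 FPKM in CTR papillomas. It was 11.1, 8.71 and 9.99 FPKM in TG 1 to TG 3, so it was not highest in TG 3. The 7 macrophage and monocyte markers summed to 34.4 to 48.1 FPKM in CTR, 38.1 in TG 1, 35.5 in TG 2 and 108.2 FPKM in TG 3. The 7 fibroblast markers summed to 74.9 to 130.3 FPKM in CTR, 90.7 in TG 1, 88.0 in TG 2 and 684.2 FPKM in TG 3. The 7 skeletal muscle markers reached 572.8 FPKM in TG 3 and at most 4.69 FPKM elsewhere. The 7 keratinocyte markers summed to 8409 to 11660 FPKM in CTR, 17580 in TG 1, 15410 in TG 2 and 7235 FPKM in TG 3. That sum was led by *Krt14* in all 7 papillomas, and *Krt14* (4717 FPKM), *Krt1* (132.7 FPKM) and *Krt10* (181.3 FPKM) had their lowest value in TG 3. However, 3 of the 7 markers went the other way, since *Krt5* (1783 FPKM), *Dsg3* (257.0 FPKM) and *Cdh1* (121.7 FPKM) had their highest value in TG 3. The 5 endothelial markers summed to 6.70 to 12.4 FPKM in CTR and 17.4, 9.82 and 25.8 FPKM in TG 1 to TG 3, and the 6 T cell markers to 1.25 to 2.65 FPKM and 1.59, 2.49 and 3.27 FPKM. The 5 adipocyte markers were led by *Fabp4*, which was abundant in all papillomas, while *Adipoq* was listed at 0 in all CTR papillomas and was 3.34 FPKM in TG 3. Their part in the values of the members was not tested. *Il24*, *Stat3* and *Socs3* were above the CTR range in TG 1 and TG 2 as well. The fibroblast, macrophage and T cell sums of TG 1 and TG 2 lay inside the CTR range, but single genes did not all follow the sums. *Pdgfra* was 0.563 and 0.613 FPKM in TG 1 and TG 2, against at most 0.369 FPKM in CTR. *Pdgfrb* in TG 1 and *Dcn* in TG 2 also lay above the CTR range, *Dcn* and *Lum* lay below it in TG 1, and the listed collagens lay inside it in both. The keratinocyte sum lay above that range in both, with *Krt1* and *Krt10* above it in both, *Krt14* and *Krt5* in TG 1, *Trp63* and *Dsg3* inside it in both, and *Cdh1* below it in TG 1 and inside it in TG 2. The neutrophil and endothelial sums lay above the CTR range in TG 1 and the muscle sum in TG 2. *Pecam1* (4.30 FPKM) and *Tek* (0.395 FPKM) lay above the CTR range in TG 2 as well, against at most 4.23 and 0.289 FPKM in CTR. The other listed endothelial genes lay inside the CTR range in TG 2. The neutrophil sum of TG 1 was nearly all *Cxcr2*, and the other listed neutrophil genes lay inside or below the CTR range there. Part of these markers (*Clec4e* and several muscle genes) are in the study's own lists from these papillomas.

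**Figure D2:**
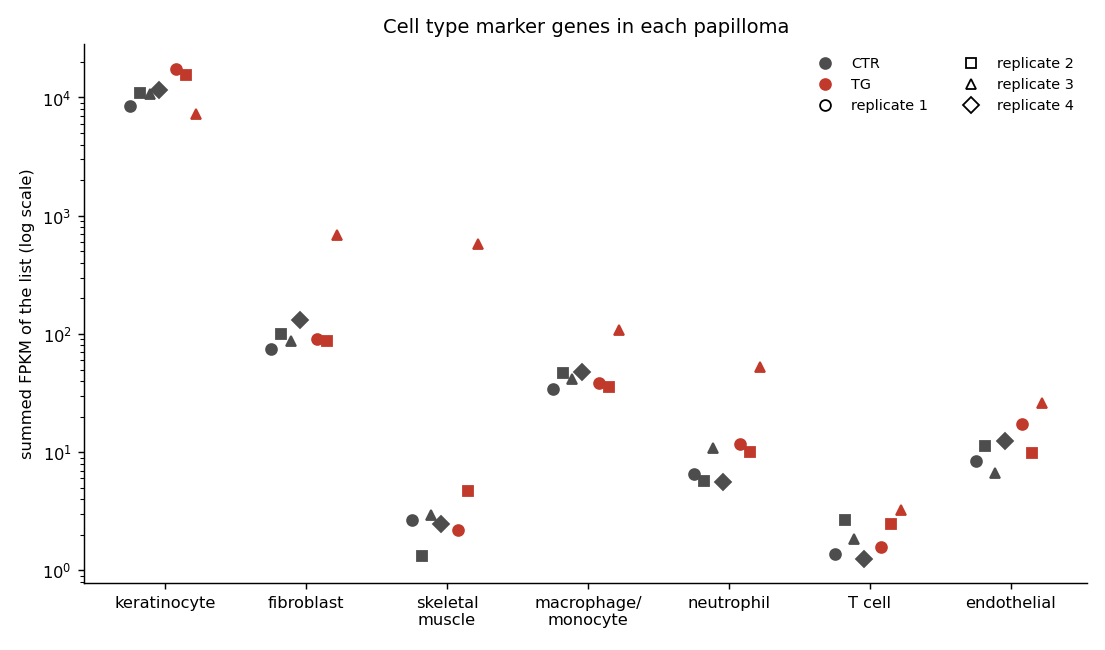
Summed FPKM of 7 cell type marker lists (logarithmic vertical axis) in each of the 4 CTR (gray) and 3 TG (red) papillomas, with the marker shape giving the replicate number. TG 3 stands above the others in fibroblast (684.2 FPKM), skeletal muscle (572.8 FPKM), macrophage (108.2 FPKM) and neutrophil (52.5 FPKM) sums and has the lowest keratinocyte sum (7235 FPKM), although 3 of its 7 genes are highest there.

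The order of the members by CTR mean was *Stat3*, *Socs3*, *Il24*, *Il6st*, *Osmr*, *Il6ra*, *Lif*, *Il11*, *Osm* and *Il6*, on the FPKM scale, which is per length. *Stat3* was above *Socs3* in 7 of 7 papillomas, and *Il6st*, *Osmr*, *Il6ra*, *Lif* and *Il11* followed each other in that order in 7 of 7. *Socs3* was above *Il24* in 4 of 4 CTR papillomas and in 1 of 3 TG papillomas, so the order of these neighbors was not the same in the groups. *Il24* was above *Il6st* in 6 of 7 papillomas. The last 3 could not be ordered, since *Il11* was above *Osm* in 4 of 7 and *Osm* above *Il6* in 4 of 7. Transcripts of the shared receptor thus exceeded those of each of *Il6*, *Il11*, *Lif* and *Osm* in every papilloma. This does not hold for all ligands of the family. *Clcf1*, a listed ligand that is not a member, was 8.55 to 30.4 FPKM in CTR and 13.2 to 17.8 FPKM in TG papillomas. It was above *Il6st* in every papilloma, with a log2 difference of -0.26 (SE 0.38).

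Among other genes of the pathway, the 6 lists of ligands, receptors, IL-20 relatives, JAK kinases and STATs, negative regulators and textbook STAT3 targets held 62 tested genes that are not members and are reported here. At an unadjusted limma p under 0.05, 9 of the 62 were higher in TG papillomas and 0 were lower, beside 4.86% and 1.96% of all genes tested. Their median log2 difference was 0.29, beside 0.06 for all genes tested, and none passed the adjusted threshold. Without TG 3 the median was 0.09, beside -0.03 for all genes tested, with 11 of the 62 higher and 1 lower at that level. Of all 12299 genes tested, 640 were higher and 539 lower at that level without TG 3.

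The receptor list and the JAK and STAT list held 8 of the 15 genes, members included, that were higher at that level. *Cntfr*, the CNTF receptor subunit, was 1.41, 0.680, 0.182 and 0.757 FPKM in CTR and 2.05, 4.34 and 1.12 FPKM in TG papillomas, and *Lifr*, the other signaling partner of gp130, had a log2 difference of 0.25 (SE 0.30). All 8 JAK and STAT genes reported here other than *Stat3* had a higher TG mean, beside 7383 of the 12299 genes tested. Their median log2 difference was 0.44, and 3 of them had an unadjusted limma p under 0.05, beside 4.86% of all genes tested. Without TG 3, 6 of the 8 were higher and the median was 0.29. *Stat5a* was 0.963 to 1.35 FPKM in CTR and 1.73 to 2.26 FPKM in TG (log2 difference 0.59, SE 0.20). *Jak1*, a kinase bound to gp130, was 20.0, 14.1, 14.9 and 20.0 FPKM in CTR and 21.2, 28.5 and 26.8 FPKM in TG, with a log2 difference of 0.56 (SE 0.19). *Jak2* had a log2 difference of 0.59 (SE 0.23), and *Stat6*, which IL-4 activates, was among the least different, at 0.11 (SE 0.22).

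Of the negative regulators other than *Socs3*, 8 of 15 were higher and 7 lower by mean, with a median log2 difference of 0.20. Over all genes tested, 7383 of 12299 had a higher TG mean. At an unadjusted limma p under 0.05, 2 of the 15 were higher, beside 4.86% of all genes tested. All TG values lay above all CTR values for 3 of the 15 (*Cish*, *Pias3* and *Ptpn1*), beside 4.93%, and below them for 0. The cytokine-induced SOCS member *Cish* (0.57, SE 0.25) and the STAT3-binding inhibitor *Pias3* (0.52, SE 0.18) had an unadjusted limma p under 0.05, while *Socs1* (-0.02, SE 0.42) and the phosphatase gene *Ptpn2* (-0.02, SE 0.16) were near 0. After upper-quartile scaling or quantile normalization, 0 of the 15 had an unadjusted limma p under 0.05 in either direction. Of the 27 tested textbook STAT3 targets, 19 were higher and 8 lower by mean, with a median of 0.30, which was 0.09 without TG 3. At an unadjusted limma p under 0.05, 3 of the 27 were higher and 0 lower, beside 4.86% and 1.96% of all genes tested. Among those lower by mean were *Birc5* (-0.38, SE 0.22), *Pim3* (-0.33, SE 0.22), *Vegfa* (-0.27, SE 0.30), *Ccnd1* (-0.21, SE 0.46) and *Myc* (-0.18, SE 0.17). *Lcn2*, which encodes the iron-binding protein lipocalin 2, was 2.44, 10.4, 2.14 and 4.54 FPKM in CTR and 26.4, 14.8 and 25.8 FPKM in TG papillomas, with no overlap (log2 difference 2.28, SE 0.47, limma p = 0.000935, exact permutation p = 0.0571). *Cebpd*, a C/EBP transcription factor, was 0.867 to 1.52 FPKM in CTR and 1.80 to 2.65 FPKM in TG (0.67, SE 0.22). *Lrg1* was 1.99 to 2.37 FPKM in TG 1 and TG 2 and 11.5 FPKM in TG 3, against at most 1.58 FPKM in CTR. The study chose *Lcn2* and *Lrg1* on these papillomas, so they are no independent evidence. With members counted among the 8 smallest p-values, *Lcn2*, *Cebpd*, *Stat5a* and *Jak1* were named by the rule on p-values, and the other genes of these lists were named after their values were seen.

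**Figure D3:**
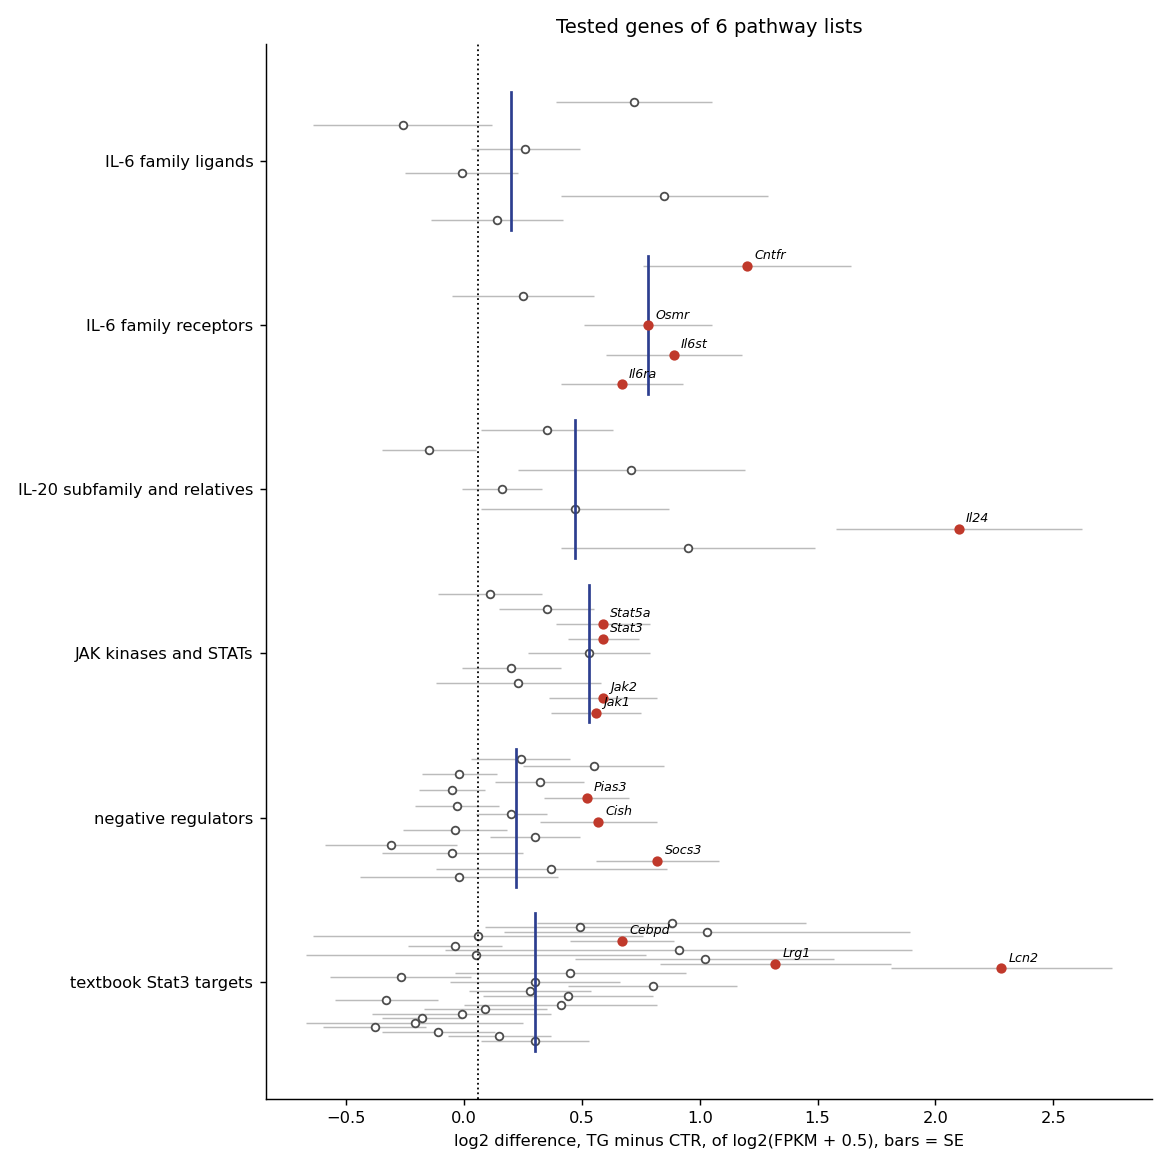
Log2 difference, TG minus CTR, of log2(FPKM + 0.5) with its SE (horizontal axis) for each reported gene of the 6 pathway lists, members included. Filled red points have an unadjusted limma p under 0.05 and are named, the blue bar is the list median and the dotted line the median of all 12299 genes tested (0.06). All named points lie to the right, and the receptor list has the highest median (0.78).

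The genes whose pattern over the 7 papillomas was most like that of a member were, by Pearson correlation of log2(FPKM + 0.5) over 7 points that share the CTR and TG grouping, *Bckdhb* for *Stat3* (r = 0.991), *Card10* for *Socs3* (r = 0.987) and *Ube3b* for *Il6st* (r = 0.999). For *Il6ra* it was *Rmnd5a* (0.996), for *Osmr* *Zfp810* (0.992), for *Il24* *Cul7* (0.989), for *Lif* *Prx* (0.992) and for *Osm* *Hdc* (0.992). With 7 papillomas such values are common, and between 13 and 134 tested genes reached 0.95 for each of these members. No member was the best match of another.

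**Figure D4:**
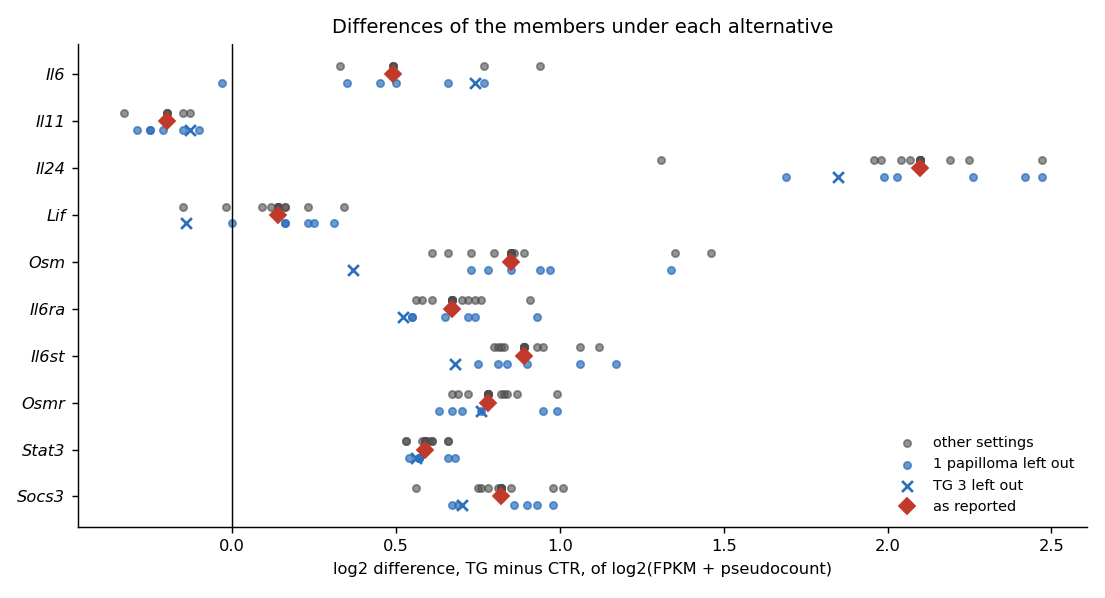
Log2 difference, TG minus CTR (horizontal axis), of each member as reported (red diamonds), with 1 papilloma left out (blue, TG 3 marked by a cross) and under the other settings tried (gray). The differences of *Stat3* stay between 0.53 and 0.68 and those of *Il24* between 1.31 and 2.47, while *Il6* and *Lif* reach the other side of 0.

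The stability of the members over settings differed. *Il24*, *Stat3* and *Socs3* had an unadjusted limma p under 0.05 in 21 of 21 alternatives, *Il6st* in 20, *Osmr* in 19 and *Il6ra* in 16. *Osm* reached it in 3 of 20 and *Lif* in 0 of 20. *Osm* was at that level without TG 1, in the papillomas of lower depth, and with sample weights, where its differences were 1.34, 1.46 and 0.86. The number of members higher at that level fell from 6 to 4 without CTR 3, without TG 2 and without TG 3, and was 7 without TG 1. The count over all genes moved as well. Genes higher at that level numbered 598 of 12299 as reported, 364 without CTR 3, 596 without TG 2 and 640 without TG 3. They numbered 825 without TG 1, 452 in the papillomas of lower depth and 1161 with sample weights.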

How the data were processed

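Per the labels and the study's methods, single reads of 40 bases from stranded poly(A)+ libraries were aligned to GRCm38/mm10 with TopHat2 2.0.4, Bowtie 0.12.7 and SAMtools 0.1.16, and the authors deposited FPKM values per gene with confidence limits from Cufflinks 1.3.0. FPKM is scaled per library, so a gene can appear lower where others take more reads. Entries of a symbol were summed, and 162 symbols with a failed estimate in any papilloma were left out (*Il11ra1* among the listed genes), and 1 listed gene is not reported here. Reads per gene were inferred from the deposited interval widths.

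Values were analyzed as log2(FPKM + 0.5). The 12299 genes averaging 0.5 FPKM or more were fitted with limma 3.58.1 (R 4.3.3; trend, no covariate, 2-sided) with Benjamini-Hochberg adjustment. The fit was tested on simulated data. Single genes were compared by exact permutation of 35 arrangements, in Python 3.11.15 (pandas 2.3.3). The 10 members, the pathway lists and the marker lists were chosen with earlier results of these data known. Listed genes were named where their unadjusted p was under 0.05, at most 8 in each direction by smallest p with members counted. The tested gene with the highest correlation to each tested member was named. Replicates are different mice. Alternatives covered pseudocount, filter, scaling, variance model, depth and each papilloma left out.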

Additional observations from a re-analysis of the deposited data

Results flagged for a closer look

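Of 14 genes examined (the 10 members, *Nanog* and 3 listed genes), 2 had a CTR papilloma that stood apart from the other 3 by Dixon's criterion, which sets the gap to the nearest value against the whole range. Chance meets it in about 1 of 20 groups. *Stat3* was 24.0 FPKM in CTR 4, where its gap to the next CTR papilloma was 0.910 of the CTR range, and that value still lay below the lowest TG value of 28.2 FPKM. *Nanog* was 12.7 FPKM in CTR 3, with a gap of 0.936 of the range, and lay below the lowest TG value of 36.9 FPKM.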

How the results depend on the processing

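In 21 alternatives no member passed an adjusted p of 0.05. Of the members, *Il24*, *Osm*, *Il6ra*, *Il6st*, *Osmr*, *Stat3* and *Socs3* stayed higher and *Il11* lower in TG in every alternative that gave a value. With 1 papilloma left out *Il6* ranged from -0.03 (without TG 2) to 0.77 and *Lif* from -0.14 to 0.31, and *Lif* turned to -0.15 with sample weights, -0.02 with quantile normalization and -0.14 without TG 3. Genes passing the adjusted threshold numbered 49 higher and 36 lower with sample weights and 1 higher in the papillomas of lower depth, and leaving out 1 papilloma gave 0 to 2 higher and 0 to 1 lower. At an unadjusted p under 0.05, higher genes numbered 1161 with sample weights and 954 without a filter, and lower genes 1248 with sample weights, 551 with quantile normalization and 418 with upper-quartile scaling. Leaving out 1 papilloma gave 364 (without CTR 3) to 825 higher and 122 (without TG 2) to 539 (without TG 3) lower. Members with separate groups numbered 7 at lower depth and 3 to 7 with 1 papilloma left out (5 without CTR 4, 7 without TG 1), where fewer papillomas make separation easier. Other listed genes higher at that level numbered 15 with sample weights, 5 with quantile normalization and 4 to 11 with 1 papilloma left out (4 without TG 2, 5 without CTR 1). Apart from these constructions, the cause was not tested. The median log2 difference of all genes was 0.06 as reported, 0.13 at lower depth and 0.12 without TG 1.

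The replicate numbers gave no sign of pairing, since deviations from the group means correlated at -0.186, 0.043 and -0.146 for same-numbered papillomas. For papillomas of other numbers they correlated at -0.216 to 0.312. With so few papillomas this check cannot exclude a pairing. A fit with the number as a block gave 5 members and 505 genes higher and 170 genes lower at an unadjusted p under 0.05, and 0 adjusted. FPKM keeps no read counts, and *Il6* (at most 23 implied reads), *Il11* (36) and *Osm* (67) are limited by depth.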
